A study of Homo sapiens with 9 samples.

Results

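The subject is 10 human genes whose products build and hold the actin network under the plasma membrane: EZR, MSN and RDX, which encode ezrin, moesin and radixin, 5 subunits of the Arp2/3 complex (ARPC1A, ARPC1B, ARPC2, ARPC3 and ARPC5), and CAPZA1 and CAPZA2, the alpha subunits of actin capping protein. They are 10 of the 58096 gene identifiers counted and 10 of the 18554 genes that passed the filter on low counts. The set was chosen by measured values of these libraries, in that EZR, ARPC1B and CAPZA2 were selected on their difference in counts between the libraries labelled siRNA2 and those labelled NTC when the replicate number was a term of the model. Values of that comparison are therefore given as a description.

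Polyadenylated RNA was sequenced from ALL-SIL, an established human cell line of T-cell acute lymphoblastic leukaemia that expresses the homeobox transcription factor TLX1. Cells were electroporated with 1 of 2 small interfering RNAs against TLX1, or with the siRNA that the labels call NTC, an abbreviation they do not spell out. Each of the 3 groups (TLX1 siRNA1, TLX1 siRNA2 and NTC siRNA) has 3 libraries numbered 1 to 3, all from the 1 cell line grown in the same medium. The labels give neither dose nor time after electroporation, and do not say whether a replicate is a separate culture, so the p-values measure the spread between libraries, which may be technical.

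Ezrin, moesin and radixin (the ERM proteins) bridge membrane proteins and cortical actin filaments, and in lymphocytes they take part in shaping microvilli and the uropod. The Arp2/3 complex starts a new filament as a branch on the side of an existing one, and its ARPC1 and ARPC5 subunits each come as a pair of related isoforms. Capping protein, a dimer of an alpha and a beta subunit, stops growth at the fast-growing barbed end and so keeps branches short.

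The libraries held 58305492 to 99524663 gene counts each. TLX1, the gene that the siRNAs target, was not lower under either TLX1 siRNA label: it averaged 416.8 ± 36.5 CPM (gene counts scaled to a common library total) in the libraries labelled siRNA1, 202.9 ± 26.1 CPM in those labelled siRNA2 and 177.9 ± 9.41 CPM in those labelled NTC (SD, n = 3 each). Under the siRNA1 label it exceeded the NTC label 2.34-fold (a log2 fold change of 1.23, edgeR adjusted p = 0.000449 with an SE of 0.10). Under the siRNA2 label it was above the NTC library of its number in 2 of 3 pairs (log2 fold change 0.19, SE 0.10, edgeR adjusted p = 1.00). TLX1 thus goes against the siRNA1 label. Under the siRNA2 label, on which the genes were selected, no reduction of TLX1 was detected. Groups are named by their label only. Of 10 T-lineage markers 9 reached 1 CPM, with TRAC, the T cell receptor alpha constant gene, the exception at a mean of 0.194 CPM. The summed T-lineage markers, TLX1 among them, spanned 3053 to 3163 CPM under the siRNA1 label, 2468 to 2961 CPM under the siRNA2 label and 2700 to 2772 CPM under the NTC label. Of 6 B-lineage markers 3 reached 1 CPM, led by CD79A at 13.8 CPM and CD79B at 9.11 CPM, and their sums spanned 22.6 to 27.4 CPM, 20.5 to 27.2 CPM and 25.7 to 31.9 CPM in the siRNA1, siRNA2 and NTC labels, with MS4A1 at no more than 1 count in any library. Myeloid, erythroid and epithelial or fibroblast markers summed to at most 1.30, 0.215 and 0.221 CPM in any library, with S100A8, S100A9, HBA1, KRT18, KRT19 and DCN at 0 counts throughout. CD3G (log2 fold change −0.44) was lower and CD7 (0.53) higher under the siRNA1 label with the replicate number in the model, where 11.4% of all genes passed. Without the replicate number, 1 of the 10 T-lineage markers passed as lower and 1, TLX1, as higher, where 1.28% of all genes passed. The part of these markers in the results below was not tested.

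Promoter sequence was matched by symbol in RefSeq (GRCh38.p14, 250 bases before to 50 after the annotated start) for 9 of the 10 genes, ARPC1B being the other. EZR and CAPZA2, whose levels set the choice, are shown with their closest relatives in the set, MSN and CAPZA1, to compare genes of 1 family whose values differed. Capitals mark GGGCGG or its reverse complement, the core of the GC box that Sp-family factors bind; neighbouring matches may share bases. The windows are chr6:158818186-158818485 on the minus strand for EZR, chrX:65588127-65588426 on the plus strand for MSN, chr1:112619582-112619881 on the plus strand for CAPZA1 and chr7:116862337-116862636 on the plus strand for CAPZA2.
EZR: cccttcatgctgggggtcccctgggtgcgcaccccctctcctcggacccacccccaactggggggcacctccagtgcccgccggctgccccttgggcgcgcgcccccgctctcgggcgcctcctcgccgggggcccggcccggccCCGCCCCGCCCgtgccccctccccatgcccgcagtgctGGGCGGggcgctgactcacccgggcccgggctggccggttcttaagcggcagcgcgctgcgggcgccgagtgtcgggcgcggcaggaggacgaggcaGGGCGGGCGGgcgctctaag
MSN: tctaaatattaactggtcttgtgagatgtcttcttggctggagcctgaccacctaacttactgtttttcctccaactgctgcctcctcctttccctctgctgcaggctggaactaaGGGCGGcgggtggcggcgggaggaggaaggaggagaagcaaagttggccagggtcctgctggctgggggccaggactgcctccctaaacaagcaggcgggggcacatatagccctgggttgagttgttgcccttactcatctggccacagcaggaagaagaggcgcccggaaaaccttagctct
CAPZA1: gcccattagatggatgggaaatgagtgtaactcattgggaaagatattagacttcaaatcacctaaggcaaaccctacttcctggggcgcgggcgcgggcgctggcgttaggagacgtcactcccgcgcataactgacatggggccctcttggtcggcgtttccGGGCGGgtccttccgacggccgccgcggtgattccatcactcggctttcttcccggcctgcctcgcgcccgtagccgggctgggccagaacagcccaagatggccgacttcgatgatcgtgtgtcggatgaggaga
CAPZA2: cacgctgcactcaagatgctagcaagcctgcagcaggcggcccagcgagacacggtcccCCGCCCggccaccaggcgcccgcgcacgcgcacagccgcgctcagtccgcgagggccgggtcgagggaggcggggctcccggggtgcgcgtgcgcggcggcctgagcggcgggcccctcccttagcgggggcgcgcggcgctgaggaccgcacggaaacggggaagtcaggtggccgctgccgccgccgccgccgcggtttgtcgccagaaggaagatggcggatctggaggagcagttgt
The EZR window held 5 matches and the other three windows 1 each, and 45.0% of 35116 such windows held at least 1. The EZR window was 80% G or C, the CAPZA2 window 75.3%, the CAPZA1 window 60.7% and the MSN window 57.0%, against a median of 58.7% over all windows. The word CCGGAAG, a core that ETS-family factors bind, was found on either strand once in the ARPC1A window and at 2 places in the ARPC3 window, but in none of the other 7, and 10.3% of all windows held it.

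Transcript levels spanned a wide range within each family when set per length, as CPM per kilobase of merged exons (GENCODE 29). MSN was the most abundant, at a mean of 188 CPM per kb over the 9 libraries, a level above 99.0% of protein-coding genes tested. EZR followed at 91.7 CPM per kb, and RDX was the lowest of the 10 at 0.480 CPM per kb, above 19.6% of coding genes and resting on 2988 counts over 9 libraries. Among the Arp2/3 subunits ARPC3 stood at 66.6, ARPC2 at 58.3, ARPC1A at 35.3, ARPC5 at 22.7 and ARPC1B at 15.5 CPM per kb. CAPZA1 stood at 58.8 and CAPZA2 at 9.72 CPM per kb. Every neighbouring pair in the order MSN, EZR, ARPC3, CAPZA1, ARPC2, ARPC1A, ARPC5, ARPC1B, CAPZA2, RDX kept its order in 9 of 9 libraries except CAPZA1 and ARPC2, where CAPZA1 was the higher in 4 of 9. This order rests on the merged exon lengths. With only exon bases not shared with another gene as the length, mean CAPZA1 (69.3 CPM per kb) came above mean ARPC3 (68.8 CPM per kb).

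**Figure D1:**
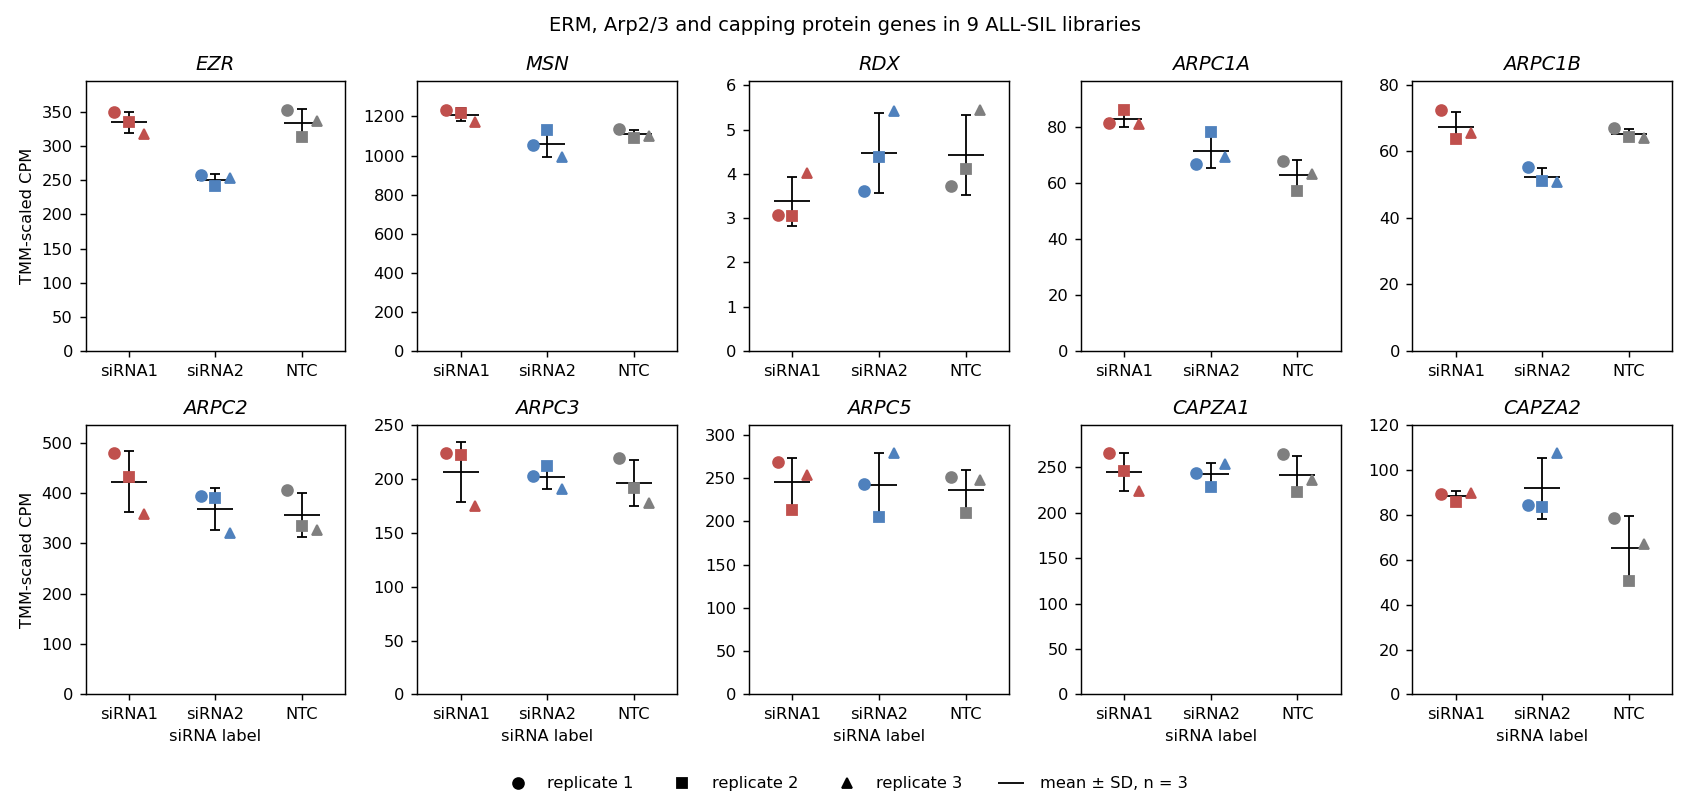
Level of each of the 10 genes in each library (vertical axis, TMM-scaled CPM, starting at 0) by siRNA label (horizontal axis); marker shape gives the replicate number, and lines give the mean ± SD of 3 libraries. EZR and ARPC1B are low in the siRNA2 label only, CAPZA2 and ARPC1A have their lowest means in the NTC label, and ARPC5 is lowest in replicate 2 of every label.

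Among the ERM genes, EZR (ezrin; ENSG00000092820.17, chromosome 6, 158765741 to 158819412, minus strand, GRCh38) stood at one level in the siRNA1 and NTC labels and lower in the siRNA2 label. EZR had 350.2, 335 and 318 CPM in replicates 1 to 3 labelled siRNA1, 258, 241 and 253 CPM in those labelled siRNA2, and 353, 313 and 336 CPM in those labelled NTC. The siRNA2 libraries lay below all 6 others, while the siRNA1 and NTC libraries overlapped throughout. The siRNA1 label differed from the NTC label by a log2 fold change of 0.00 (SE 0.08, edgeR adjusted p = 0.998), with means of 334 ± 16.0 CPM and 334 ± 19.8 CPM (SD, n = 3 each). In the comparison that chose it, EZR was 1.33-fold lower under the siRNA2 label (log2 fold change −0.42, SE 0.08). An antisense gene, EZR-AS1, overlaps 24 of the 3342 exonic bases of EZR, and the library kit does not keep strand.

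MSN (moesin; chromosome X, 65588377 to 65741931, plus strand) was the main ERM gene of these cells by level. It had 1233, 1219.8 and 1171 CPM in the siRNA1 label, 1053, 1129 and 994 CPM in the siRNA2 label, and 1135, 1089.9 and 1099 CPM in the NTC label. All 3 siRNA1 libraries were above all 3 NTC libraries, by a log2 fold change of 0.12 (SE 0.08) that did not pass (edgeR adjusted p = 0.658, and 0.224 with the replicate number in the model). The siRNA2 libraries overlapped the NTC ones (log2 fold change −0.07, SE 0.08). RDX (radixin; chromosome 11, 109864295 to 110296722, minus strand) had 3.07, 3.05 and 4.01 CPM in the siRNA1 label, 3.62, 4.39 and 5.43 CPM in the siRNA2 label, and 3.73, 4.12 and 5.45 CPM in the NTC label. Replicate 3 was the highest in each label, and each siRNA1 library was below the NTC library of the same number. The siRNA1 label was lower by a log2 fold change of −0.39, which passed with the replicate number in the model (SE 0.10, edgeR adjusted p = 0.0163) and not without it (SE 0.20, adjusted p = 0.541). The RDX call was lost when siRNA1 replicate 2 or 3, or NTC replicate 1 or 3, was left out (log2 fold changes −0.45 to −0.35, highest edgeR adjusted p = 0.113, over 9 fits that each omit 1 library), and in each of the 3 fits that omit a replicate number (highest edgeR adjusted p = 0.103).

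In the Arp2/3 complex the ARPC1 pair, the propeller subunit that binds nucleation-promoting factors, divided: ARPC1A was high under the siRNA1 label and ARPC1B was low under the siRNA2 label. The 2 genes lie next to each other on the plus strand of chromosome 7, ARPC1A from 99325910 to 99366262 and ARPC1B from 99374249 to 99394816. ARPC1A had 81.4, 86.2 and 81.1 CPM in the siRNA1 label, 66.7, 78.4 and 69.2 CPM in the siRNA2 label, and 68.1, 57.1 and 63.3 CPM in the NTC label. All siRNA1 libraries were above all others, and the siRNA2 and NTC libraries overlapped. The siRNA1 label was 1.32-fold higher than the NTC label (log2 fold change 0.40, SE 0.09), which missed the threshold of 0.05 without the replicate number (edgeR adjusted p = 0.0627) and passed with it (SE 0.08, adjusted p = 0.000808). With the replicate number, the call held in each of the 9 fits that leave out 1 library and in each of the 3 that leave out 1 replicate number (highest edgeR adjusted p = 0.0140). Without the replicate number it passed with DESeq2 (adjusted p = 0.00742), with a filter at 1 CPM (edgeR adjusted p = 0.0408), with no filter (0.0146) and with library size as the only scaling (0.0368). It did not pass with RLE factors (edgeR adjusted p = 0.0716), limma-voom (adjusted p = 0.0578), only the groups compared (edgeR 0.0714) or counts summed by strand (edgeR 0.0567). Nor did ARPC1A pass without the replicate number in any of the 9 fits that leave out 1 library (edgeR adjusted p 0.0517 to 0.252).

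ARPC1B, the isoform most prominent in blood cells, had 72.5, 63.8 and 65.6 CPM in the siRNA1 label, 55.3, 51.2 and 50.8 CPM in the siRNA2 label, and 67.0, 64.4 and 63.9 CPM in the NTC label. As with EZR, the siRNA2 libraries lay below the other 6. Per length (2053 exonic bases for ARPC1A and 3988 for ARPC1B) ARPC1A exceeded ARPC1B in every library, by 1.72-fold to 2.98-fold. Without length, ARPC1A averaged 82.9, 71.4 and 62.8 CPM in the siRNA1, siRNA2 and NTC labels. ARPC1B averaged 67.3, 52.4 and 65.1 CPM in the same labels. The siRNA1 label differed from the NTC label by a log2 fold change of 0.05 (SE 0.08, edgeR adjusted p = 0.93). In the comparison that chose it, the siRNA2 label was 1.24-fold lower (log2 fold change −0.31, SE 0.08). PDAP1, on the opposite strand, shares 100 of the 3988 exonic bases of ARPC1B. When counts by strand were summed, so that reads in shared bases were kept, the counts of ARPC1B came to 1.40 times the unstranded ones and its log2 fold change under the siRNA2 label was −0.31, as before. The counts of ARPC1A came to 1.00 times. The ratio of ARPC1A to ARPC1B and the ARPC1B share of the pair thus depend on how the shared bases are counted.

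ARPC2 and ARPC3 (a core subunit that contacts the mother filament, and a peripheral one) followed the replicate number more than the label. ARPC2 had 479, 432 and 358 CPM in the siRNA1 label, 393, 391 and 321 CPM in the siRNA2 label, and 406, 335 and 326 CPM in the NTC label. It was highest in replicate 1 and lowest in replicate 3 in every label, and each siRNA1 library was above the NTC library of its number although the groups overlapped. The siRNA1 label was higher by a log2 fold change of 0.24 with the replicate number in the model (SE 0.07, edgeR adjusted p = 0.0156) and by 0.25 without it (SE 0.13, adjusted p = 0.548). The ARPC2 call was lost when siRNA1 replicate 1 or 2 or NTC replicate 2 was left out (log2 fold changes 0.17 to 0.29, highest edgeR adjusted p = 0.132, over the 9 fits), and it held in 1 of the 3 fits that omit a replicate number (highest edgeR adjusted p = 0.150). ARPC3 had 223, 222 and 174 CPM in the siRNA1 label, 202, 212 and 191 CPM in the siRNA2 label, and 219.5, 192 and 177 CPM in the NTC label. The labels overlapped (siRNA1 against NTC, log2 fold change 0.07, SE 0.11), and replicate 3 was again the lowest in each. ARPC5, a small subunit with the isoform ARPC5L, had 268, 214 and 253 CPM in the siRNA1 label, 243, 205 and 279 CPM in the siRNA2 label, and 251, 210.2 and 248 CPM in the NTC label. Replicate 2 was the lowest in every label, and the labels overlapped (siRNA1 against NTC, log2 fold change 0.05, SE 0.12).

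Of the capping protein alpha subunits, CAPZA2 (chromosome 7, 116811070 to 116922049, plus strand) was higher under both TLX1 siRNA labels than under the NTC label, and CAPZA1 (chromosome 1, 112619173 to 112671619, plus strand) overlapped in all 3. CAPZA2 had 89.4, 85.8 and 90.0 CPM in the siRNA1 label, 84.5, 83.5 and 107 CPM in the siRNA2 label, and 78.8, 50.5 and 67.1 CPM in the NTC label. The 6 libraries of the TLX1 siRNA labels were above all 3 NTC libraries, of which replicate 2 was the lowest. Against the NTC label, the siRNA1 label was 1.35-fold higher (a log2 fold change of 0.43 with an SE of 0.15, edgeR adjusted p = 0.262), and the difference passed with the replicate number in the model (log2 fold change 0.45, SE 0.09, adjusted p = 0.00190). Without NTC replicate 2 or any other single library it still passed with the replicate number (log2 fold changes 0.32 to 0.63, highest edgeR adjusted p = 0.0282). This comparison shares its NTC libraries with the one that chose CAPZA2, so it is not independent of the choice. In the comparison that chose it, the siRNA2 label was 1.40-fold higher (log2 fold change 0.49, SE 0.15). CAPZA1 had 265, 246 and 224 CPM in the siRNA1 label, 244, 228 and 254 CPM in the siRNA2 label, and 265, 223 and 236 CPM in the NTC label. Its labels overlapped (siRNA1 against NTC, log2 fold change 0.02, SE 0.09), and 15.1% of its exonic bases are shared with ST7L on the other strand.

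**Figure D2:**
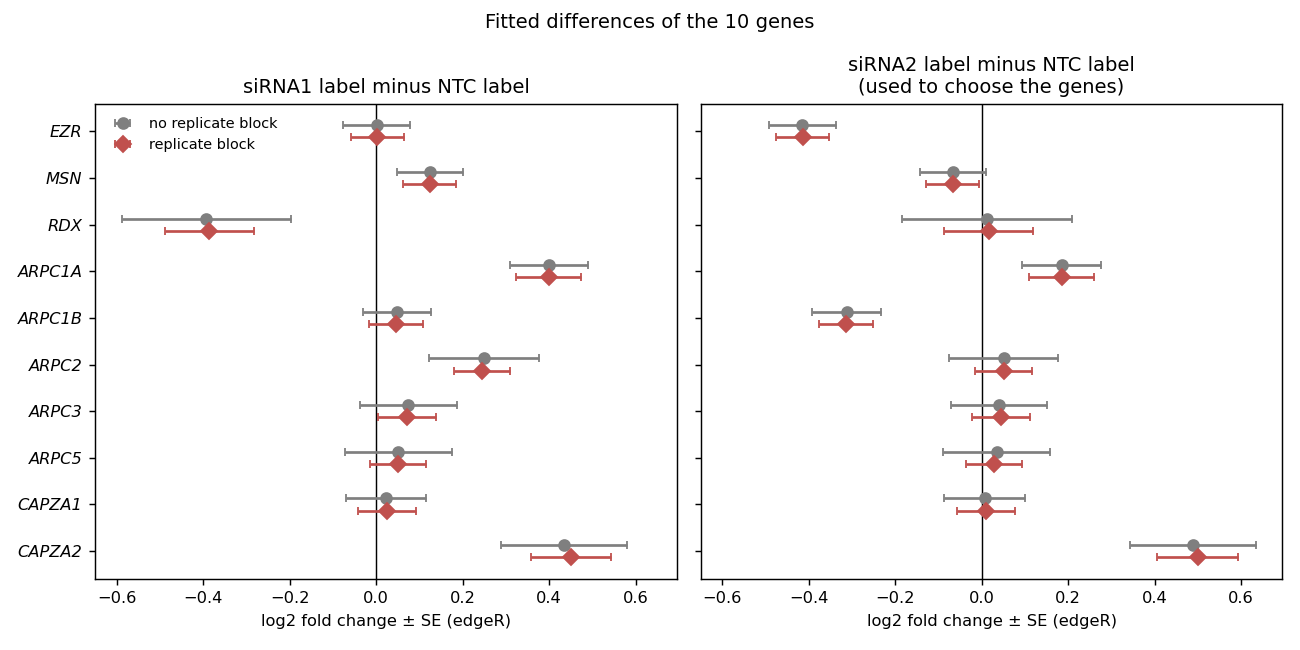
Log2 fold change ± SE (horizontal axis) of each gene for the siRNA1 label over the NTC label (left) and the siRNA2 label over the NTC label (right), from edgeR without the replicate number (circles) and with it as a block (diamonds). EZR and ARPC1B sit at 0.00 and 0.05 on the left and at −0.42 and −0.31 on the right, while CAPZA2 sits at 0.43 and 0.49; the right panel holds the values that chose these 3 genes.

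Counted together, 0 of the 10 genes passed between the siRNA1 and NTC labels without the replicate number in edgeR, where 1.28% of all genes passed. At an unadjusted p under 0.05 were 2 of the 10, where 10.3% of all genes were. DESeq2 called 1 of the 10 and 553 of all 18554 genes. By limma-voom 0 of the 10 and 230 of all genes passed. With the replicate number as a block 4 passed, ARPC1A, ARPC2 and CAPZA2 higher and RDX lower, where 11.4% of all genes passed. CAPZA2 was chosen on its difference from these same NTC libraries in the block fit, so this count is not independent of the choice. The median log2 fold change of the 10 was 0.06, against 0.01 over all genes tested, and 9 of 10 were above 0. Of these, EZR, ARPC1B, ARPC3, ARPC5 and CAPZA1 were above 0 by less than their SE. Between the siRNA2 and NTC labels 0% of all genes passed in edgeR without the replicate number (392 genes at an unadjusted p under 0.05, 4 with DESeq2 and 0 with limma-voom), and 0 of the 10 did. With it, 0.151% of all genes passed, and EZR, ARPC1B and CAPZA2 were the 3 of 10 on which the choice rests. The value that selected them was 0.0386 for ARPC1B, just inside the limit on the edgeR adjusted p, and 0.477 for ARPC1A, the next outside it. With 1 library left out, the same selecting value was within the limit in 9 of 9 fits for EZR, 6 of 9 for CAPZA2 and 3 of 9 for ARPC1B, which describes the choice and supports nothing. Direct values of the siRNA1 label over the siRNA2 label were a log2 fold change of 0.42 (SE 0.08) for EZR, 0.36 (SE 0.08) for ARPC1B, 0.21 (SE 0.09) for ARPC1A and −0.05 (SE 0.14) for CAPZA2, given without a test because they use the same siRNA2 libraries. Bulk RNA cannot tell fewer cells that express a gene from less RNA per cell.

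Within each family, shares of counts per kb are free of scaling between libraries. EZR made up 33.6%, 32.9% and 32.6% of ERM transcripts in the siRNA1 label, 30.4%, 27.6% and 31.2% in the siRNA2 label, and 35.7%, 33.9% and 35.3% in the NTC label. Its share was lower under both TLX1 siRNA labels than under NTC without overlap, and the difference for siRNA1 was −1.88 percentage points. In CPM, EZR averaged 334 in both the siRNA1 and NTC labels, and MSN, in the denominator, averaged 1208 CPM in the siRNA1 label and 1108 CPM in the NTC label. MSN filled most of the rest, with 66.8% ± 0.494, 70.1% ± 1.90 and 64.9% ± 0.929 in the siRNA1, siRNA2 and NTC labels (SD, n = 3 each), while RDX was at most 0.262% in any library. ARPC1B made up 31.4%, 27.6% and 29.4% of the ARPC1 pair in the siRNA1 label, 29.9%, 25.1% and 27.4% in the siRNA2 label, and 33.6%, 36.7% and 34.2% in the NTC label. Its share was lower in all 6 libraries of the TLX1 siRNA labels, although in CPM it was ARPC1A that was high under siRNA1 and ARPC1B that was low under siRNA2. CAPZA2 made up 14.2%, 14.6% and 16.5% of the CAPZA pair in the siRNA1 label, 14.5%, 15.2% and 17.2% in the siRNA2 label, and 12.7%, 10.01% and 12.2% in the NTC label. For siRNA1 against NTC, 5 shares were compared; the exact two-sided permutation p was 0.1 for EZR, MSN, ARPC1B and CAPZA2, the smallest that 3 against 3 libraries allow, and 0.2 for RDX. With 3 libraries a label this exact test cannot reach 0.05. EZR, ARPC1B and CAPZA2 were chosen on the siRNA2 label against the NTC label, so their siRNA2 shares follow in part from that choice. Their siRNA1 shares are set against the same NTC libraries and are not independent of it.

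**Figure D3:**
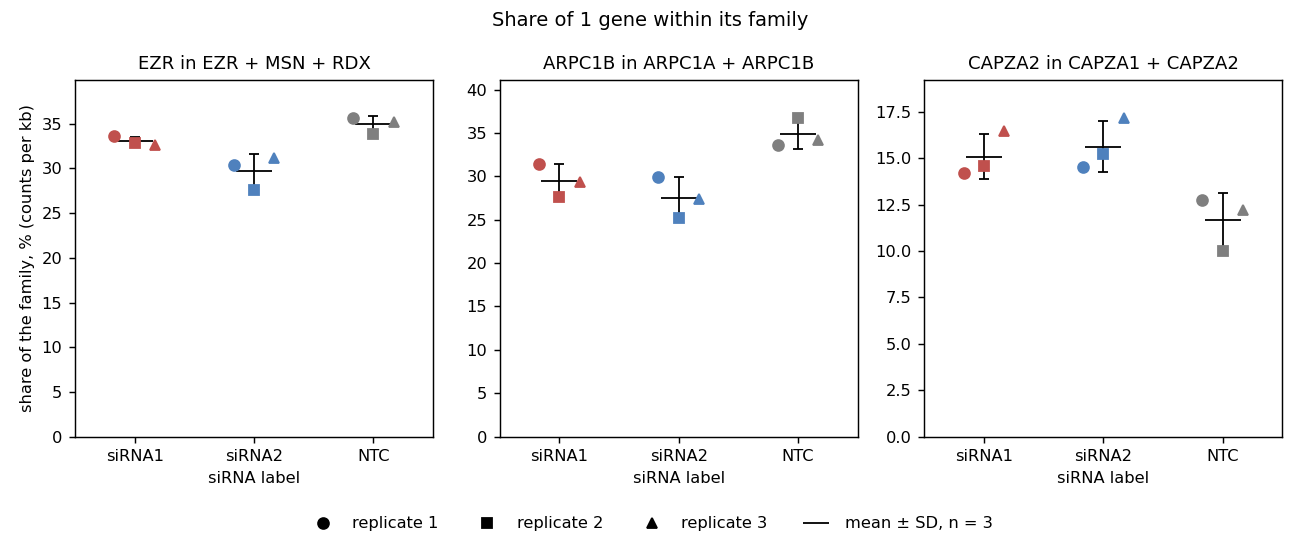
Share of 1 gene in the summed counts per kb of its family (vertical axis, %, starting at 0) in each library by siRNA label; marker shape gives the replicate number and lines the mean ± SD of 3 libraries. EZR and ARPC1B have smaller shares, and CAPZA2 a larger one, in all 6 libraries of the TLX1 siRNA labels than in the 3 NTC libraries. These genes were chosen on the siRNA2 label against the NTC label, so the pattern follows in part from the choice.

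Across the 9 libraries EZR and ARPC1B ran in parallel, with a Pearson r of 0.955 of log2 CPM, which their common choice on the siRNA2 label in part fixes. The ratio of EZR to ARPC1B lay between 4.66 and 5.27 in every library. Of 8529 other coding genes at a mean of 10 CPM or more, those most like EZR were GSTP1 (a glutathione transferase, r = 0.955), ARPC1B and SHMT1 (cytosolic serine hydroxymethyltransferase, r = 0.950). SHMT1 (r = 0.938) and FAM110A (r = 0.934) came next to EZR for ARPC1B. GSTP1 averaged 401 ± 24.3, 300.4 ± 16.8 and 426 ± 30.3 CPM in the siRNA1, siRNA2 and NTC labels (SD, n = 3 each), the same low siRNA2 level. For CAPZA2 the nearest were TMEM59 (r = 0.966), UNG (the uracil-DNA glycosylase, r = 0.951) and MANEA (an endomannosidase, r = 0.939). UNG averaged 196 ± 11.7, 233 ± 17.0 and 139 ± 49.3 CPM in the siRNA1, siRNA2 and NTC labels (SD, n = 3 each). Among the 10 genes themselves, ARPC2 ran with ARPC3 (r = 0.844) and against RDX (r = −0.888). All of these points share the same 9 libraries, labels and replicate numbers, and are descriptions.

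The replicate number, which the choice of genes did not use as a contrast, was a separate axis. With the label in the model, 5 of the 10 genes differed between replicate numbers in edgeR's quasi-likelihood F test, where 35.8% of all genes did: ARPC2 (adjusted p = 0.00126), ARPC5 (0.00126), RDX (0.00174), ARPC3 (0.0129) and CAPZA2 (0.0414). Over the 3 labels, ARPC2 averaged 426 ± 46.0, 386 ± 48.9 and 335 ± 19.8 CPM in the libraries numbered 1, 2 and 3 (SD, n = 3 each), and RDX 3.48 ± 0.355, 3.85 ± 0.705 and 4.96 ± 0.823 CPM. ARPC5 averaged 254 ± 12.7, 209.5 ± 4.51 and 260.03 ± 16.3 CPM in the same libraries, a dip in number 2. RDX, ARPC2 and ARPC5 passed in all 9 fits that leave out 1 library, ARPC3 in 6 and CAPZA2 in 5, and with siRNA1 replicate 1 left out 3 of the 10 passed. Of the variation of log2 CPM over the 9 libraries, the label took 92.2% for EZR, 88.2% for ARPC1B, 78.5% for ARPC1A, 72.1% for MSN and 60.9% for CAPZA2. The choice of EZR, ARPC1B and CAPZA2 used part of these same values and by itself makes their label shares large, so those shares only describe the genes. The replicate number took 86.2% for ARPC5, 70.6% for ARPC3, 57.7% for ARPC2 and 55.4% for RDX, and CAPZA1 was divided between the number (50.2%) and the remainder (48.7%). Over coding genes at 10 CPM or more, the median shares were 23.2% for the label and 48.5% for the replicate number. The labels do not say what a replicate number stands for.

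**Figure D4:**
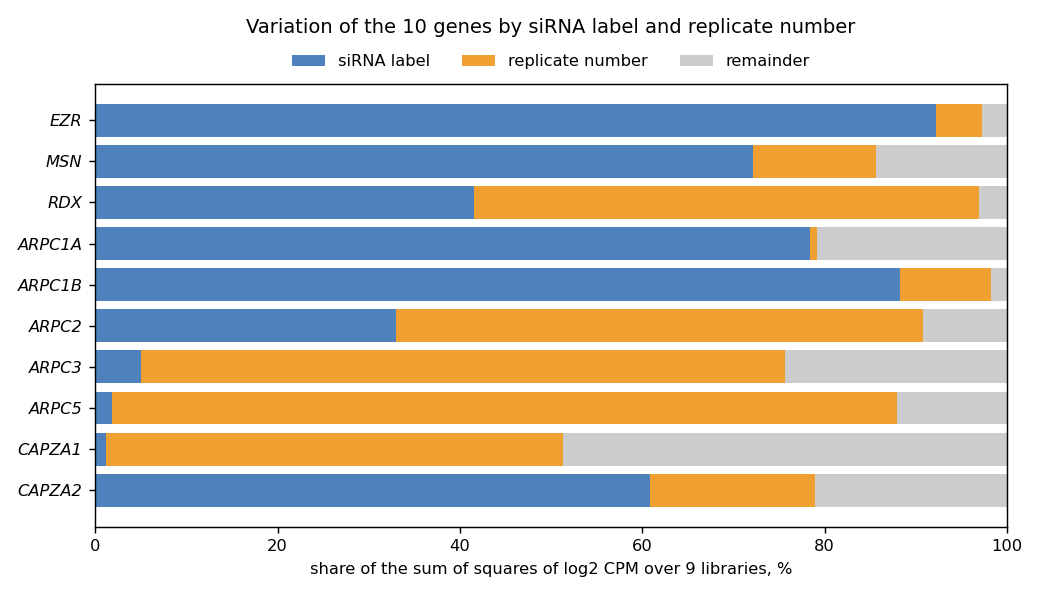
Share of the sum of squares of log2 CPM over 9 libraries (horizontal axis, %) that goes with the siRNA label (blue), the replicate number (orange) and neither (grey), for each gene. ARPC5 and ARPC3 vary mostly with the replicate number (86.2% and 70.6%); the large blue shares of EZR and ARPC1B (92.2% and 88.2%) come in part from the siRNA2 and NTC values on which those genes were selected.

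Little difference was seen in the rest of the complex. Of the 5 other Arp2/3 subunit genes tested, 0 passed between the siRNA1 and NTC labels in edgeR without or with the replicate number. Of all genes, 1.28% passed without the replicate number and 11.4% with it, so a count of 0 among 5 says little by itself. At an unadjusted p under 0.05 there were 0 of the 5, where 10.3% of all genes were. Log2 fold changes ran from −0.08 to 0.06 for ACTR2, ACTR3, ACTR3B, ARPC4 and ARPC5L. CAPZB, the beta subunit that pairs with either alpha subunit and is named here for that reason, averaged 185 ± 8.80 CPM in the siRNA1 label and 179.6 ± 9.42 CPM in the NTC label (SD, n = 3 each; log2 fold change 0.05, SE 0.08). Among 12 other capping genes and regulators tested, 0 passed without the replicate number, where 1.28% of all genes did (3 at an unadjusted p under 0.05, as were 10.3% of all genes). With the replicate number 3 passed, where 11.4% of all genes did. MTPN, which binds capping protein and keeps it off filament ends, fell by 0.41 on the log2 scale (SE 0.07, edgeR adjusted p = 0.000130). The adducins ADD1 (0.21) and ADD3 (0.19), which link filament ends to spectrin, rose. MTPN averaged 175 ± 10.7 CPM in the siRNA1 label and 232 ± 26.4 CPM in the NTC label (SD, n = 3 each), with no overlap.

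Calls among regulators of the Arp2/3 complex went both ways under the siRNA1 label. Of 32 tested, 1 passed without the replicate number, where 1.28% of all genes did (5 at an unadjusted p under 0.05, as were 10.3% of all genes). This was CORO2A, a coronin, at 36.3 ± 4.27 CPM in the siRNA1 label and 53.4 ± 7.05 CPM in the NTC label (SD, n = 3 each). Its log2 fold change was −0.56 (edgeR adjusted p = 0.0463). With the replicate number 4 fell and 3 rose, where 11.4% of all genes passed. The lower ones were CORO2A, WASF1 (log2 fold change −0.67, edgeR adjusted p = 1.24e-06), which encodes the WAVE1 activator, CTTN (−0.29), which encodes cortactin, and WHAMM (−0.23), an activator found on internal membranes. The higher ones were CORO1A (0.33, edgeR adjusted p = 0.00291), the main coronin of T cells, and the WASH complex genes WASHC2A (0.24) and WASHC2C (0.21). WASHC2A and WASHC2C are near-identical copies, and reads that map to more than 1 place are held apart from the gene counts.

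Of 16 partners and kinases of ERM proteins tested, 0 passed without the replicate number, where 1.28% of all genes did (4 at an unadjusted p under 0.05, as were 10.3% of all genes). With the replicate number 2 fell and 2 rose, where 11.4% of all genes passed. NF2 (merlin, a relative of the ERM proteins) was lower (log2 fold change −0.22 with the replicate number, edgeR adjusted p = 0.0467). STK10, a kinase that phosphorylates ERM proteins, was higher (0.39, edgeR adjusted p = 0.000499), as was the adhesion receptor ICAM1 (0.39). Of 40 actin, monomer and filament genes tested, 0 passed without the replicate number, where 1.28% of all genes did (5 at an unadjusted p under 0.05, as were 10.3% of all genes). With the replicate number 9 rose and 0 fell, where 11.4% of all genes passed in either direction. The median log2 fold change of the 40 was 0.11, against 0.01 over all genes tested. The leading ones were LCP1 (L-plastin, a bundling protein, 0.33), the GTPase RAC2 (0.35), the myosin light chain MYL12A (0.28) and the formin FMNL1 (0.29), as log2 fold changes with the replicate number. Between the siRNA2 and NTC labels, 0 of the genes in these 5 lists passed in edgeR without or with the replicate number, as a description (2 of them at an unadjusted p under 0.05 without it). Of all genes, 0% passed without the replicate number and 0.151% with it. At an unadjusted p under 0.05 without the replicate number were 2.11% of all genes.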

How the data were processed

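Deposited counts were analysed: per the labels, reads come from an unstranded TruSeq mRNA kit, and per the submitters' processing notes the build is GRCh38. No source used here names the aligner or the annotation. The authors' tables give whole-number counts per gene without regard to strand, which were used, and by strand, which served as a check; 4 summary lines that name no gene were left out, and 75.5% to 77.6% of reads fell in genes. No later normalization by the authors is present in the values.

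Differences were fitted in edgeR 4.0.16 under R 4.3.3 (scaling by TMM, factors 0.975 to 1.04, filterByExpr with minimum count 10 and minimum total 15, quasi-likelihood test of all 9 libraries in 1 fit, Benjamini-Hochberg adjustment over 18554 genes, threshold 0.05). The SE of a log2 fold change is its absolute value over the square root of F. CPM are TMM-scaled, log2 CPM use a prior count of 2, and exon lengths come from GENCODE 29, which holds 57447 of the 58096 identifiers. At these depths counting error is small except for RDX. No replicates were duplicates (chi-square per degree of freedom 36.0 to 60.7). Scripts were tested on simulated data.

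Replicate numbers are shared between labels. Deviations from label means correlated at 0.383 to 0.623 in all 9 same-number pairs and at −0.445 to 0.0693 in the 18 others, so the numbers were taken to pair the libraries, and results with the number as a block stand beside the fit without it.

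The 10 genes and the other lists were chosen with earlier results of these data known. Named genes were the 10, TLX1, up to 4 each way per other list that passed without or with the block between the siRNA1 and NTC labels by smallest adjusted p, and the 3 coding genes (mean of at least 10 CPM) most correlated with EZR, ARPC1B and CAPZA2. Alternatives were RLE factors, library size alone, other filters, DESeq2 1.42.0, limma-voom (limma 3.58.1), only the groups compared, leaving libraries out and, added after seeing the data, the sum of the counts by strand and unshared exon length. Values of some list genes are not reported here.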

Additional observations from a re-analysis of the deposited data

How the results depend on the processing

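Without the replicate block 0 of the 10 genes passed between the siRNA1 and NTC labels, also with RLE factors, limma-voom and only the groups compared. The count was 1 with library size alone, with a filter at 1 CPM and with DESeq2 (ARPC1A each time), 2 with no filter (ARPC1A and CAPZA2), and 4 with the replicate block, from the counts used and from the sum of the strand columns. With libraries left out it was 0 in every fit without the block and 2 to 4 in those with it. Between the siRNA2 and NTC labels the count was 0, but 1 with DESeq2 (EZR) and with no filter (CAPZA2), 3 with the replicate block from either count, and with libraries left out 0 in every fit without the block and 1 to 3 in those with it. For the replicate number the count was 5, and 3 to 5 with libraries left out. Over all genes, the siRNA1 comparison gave 238 calls, against 590 with no filter, 553 with DESeq2, 2117 with the replicate block, 103 to 253 with 1 library left out, and 75, 23 and 0 with replicate 1, 2 or 3 left out. The siRNA2 comparison gave 0, against 15 with no filter, 4 with DESeq2 and 28 with the replicate block. The siRNA1 calls were 201 with library size alone and 249 of 12808 genes with the filter at 1 CPM. With the block and libraries left out, 18484 to 19157 genes were tested. Calls among them were 1139 to 2979 for siRNA1 and 4 to 108 for siRNA2. The replicate number gave 6650 calls over all genes, and 4595 to 7083 with 1 library left out.

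The log2 fold change of EZR between the siRNA1 and NTC labels was 0.0016 and changed sign to −0.0020 with RLE factors, −0.0022 with no filter, −0.0020 with DESeq2, −0.0030 with only the groups compared, −0.0040 with the sum of the strand columns and −0.0030 with that sum and the replicate block. With libraries left out, EZR spanned −0.045 to 0.043, ARPC1B −0.0099 to 0.084, ARPC5 −0.028 to 0.14 and CAPZA1 −0.038 to 0.098. These 4 genes did not pass in any of those fits, and the cause of the sign changes was not tested. The replicate block, taken as sign flips of the 3 same-number differences, gave an exact p of 0.25 for each family share, the smallest it allows. With 3 libraries a label and RDX at 2988 counts in all, differences of RDX are the least precise.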
